A study of Homo sapiens with 4 samples.

Results

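RNA immunoprecipitation sequencing (RIP-seq) of HuR in MDA-MB-231 cells gave a list of 14149 peaks, and 19 of them were hosted by CANX, the gene of calnexin. A peak was counted as hosted by CANX when the RefSeq transcript in its annotation was a CANX transcript, whatever other gene name the list gave. CANX was chosen by its peak scores, which were among the highest of the list, so its high scores and ranks are given as a description and no test was made on them. MDA-MB-231 is a human triple-negative breast cancer line. HuR-RNA complexes were isolated from lysate with a mouse anti-HuR antibody in 2 samples, and mouse IgG was used in 2 control samples. The cells of all 4 samples were the same line, grown in DMEM with fetal bovine serum, and the libraries were made without poly A selection. The list held 1 score per peak and no value for a single sample, so no peak has an SD, an enrichment over IgG or a test between antibodies.

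Calnexin is a chaperone anchored in the membrane of the endoplasmic reticulum (ER), with a lectin domain in the ER lumen and a short cytosolic tail. It binds newly made glycoproteins that carry a trimmed, monoglucosylated glycan and holds them until they fold or are passed to degradation. HuR, the product of ELAVL1, is a mostly nuclear RNA-binding protein that shuttles to the cytoplasm, binds U-rich and AU-rich stretches in introns and 3′-UTRs, and is known for its effects on mRNA stability, translation and splicing.

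In hg38, CANX lies on the plus strand of chromosome 5, from 179678628 to 179731641 in GENCODE 44 (ENSG00000127022). Its canonical transcript runs from 179698967 to 179731641, has 15 exons, encodes 592 residues and ends in a 3′-UTR of 2997 bp. Sequences are shown first for an exon with a peak centred on each side and for an exon without any peak. The AU-rich, U-rich and AATAAA sites that lay within the 3′-UTR peaks follow. All are hg38 plus strand, which is the sense strand of CANX (the strand with the sequence of its RNA), read 5′ to 3′. In the exon sequences capitals mark the exon and lower case marks 20 bases of intron on each side, and in the 3′-UTR sequences capitals mark the site.
Exon 7, chr5:179709853-179710085: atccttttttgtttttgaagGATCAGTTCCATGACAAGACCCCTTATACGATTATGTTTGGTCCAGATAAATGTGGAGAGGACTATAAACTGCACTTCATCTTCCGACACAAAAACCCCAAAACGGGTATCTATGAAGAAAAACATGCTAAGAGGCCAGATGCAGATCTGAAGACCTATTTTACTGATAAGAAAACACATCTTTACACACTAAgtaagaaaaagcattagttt
Exon 4, chr5:179707112-179707210: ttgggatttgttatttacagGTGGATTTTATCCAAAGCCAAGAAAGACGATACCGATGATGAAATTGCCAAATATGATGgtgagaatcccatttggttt
ATTTA in peak 17, chr5:179729374-179729403: tggcacttgggcATTTAtattccacttggg
ATTTA in peak 19, chr5:179730617-179730646: ctttccagggttATTTAgtaaagtttgttg
T run in peak 18, chr5:179730338-179730367: gctgttcagtgcTTTTTccttttcatctgt
AATAAA in peaks 18 and 19, chr5:179730416-179730445: gtattgattacaAATAAAcagttgttactt
Exon 7 is 193 bp long and encodes residues 177 to 241, and 1 peak was centred on each side of it. These 2 peaks covered 137 and 113 bp of the exon and overlapped each other by 57 bp. Between them they covered all of the exon. Exon 4 is 59 bp long and had no listed peak.

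The 19 CANX peaks scored between 1140.1 and 3376.1, around a median of 2391.1 (lower quartile 1845.4, upper quartile 3075.9). The score is the value that the peak caller HOMER gave each peak, and its scale is not stated. The median over all listed peaks was 34.0, so the CANX median was 70.3 times that of the list. The highest CANX score was 2.96 times the lowest, and 2.44 times the second lowest, 1381.4. CANX peaks held 3.15% of the summed score of the list and 0.134% of its peaks. Of the 10 highest scores in the list 5 were CANX peaks, and of the 100 highest 18 were. The highest score of the list was far above these, 25897.6 in ACTB, whose 4 peaks scored 20120.4 or more. Only 116 listed peaks, 0.820%, scored at or above the lowest CANX peak, a share that follows from how CANX was chosen. On chromosome 5, which had 892 listed peaks, the 10 highest and 19 of the 20 highest were CANX peaks, and the best of another gene was 1089.2 in G3BP1.

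**Figure D1:**
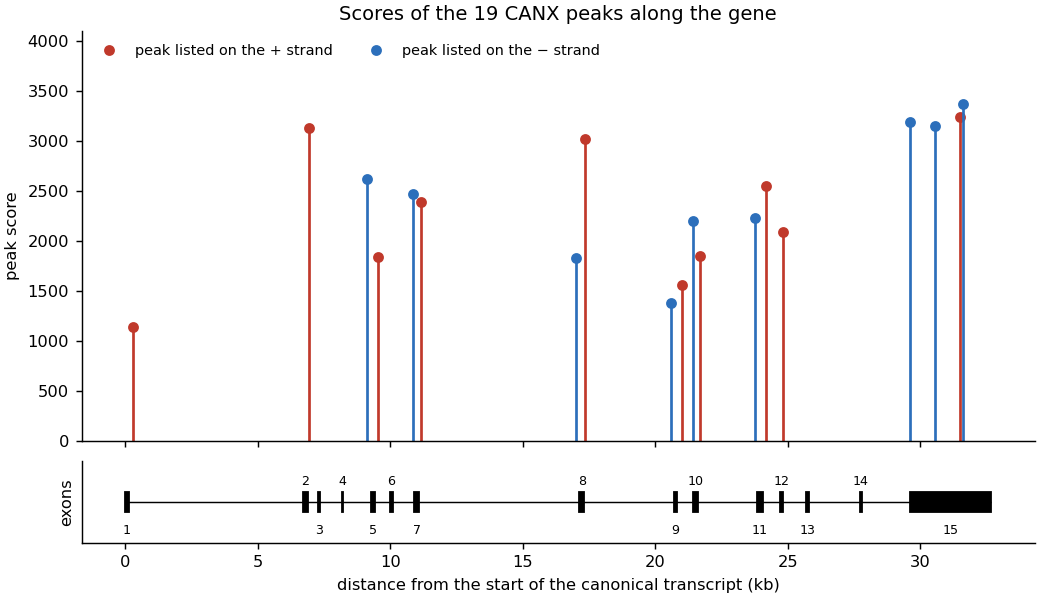
Peak score (y axis, HOMER units) of the 19 CANX peaks against distance from the start of the canonical transcript (x axis), by peak strand, with the exons drawn below. The first peak had the lowest score, 1140.1, and the last had the highest, 3376.1. Scores between them went up and down with no steady rise, and peaks on both strands lay along the gene.

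The peaks are numbered from the 5′ end of the gene. Peak 1 (179699074 to 179699420, plus strand) lay in intron 1 with its centre 145 bp after exon 1, over an annotated CpG island, and scored 1140.1, the lowest of the 19. Peak 2 (179705728 to 179706074, plus strand) lay in intron 2, 49 bp after exon 2, which holds the start codon, and scored 3132.8. Peak 3 (179707910 to 179708256, minus strand) scored 2622.8 and peak 4 (179708350 to 179708696, plus strand) scored 1842.2, centred on the upstream and downstream side of exon 5. Peak 2 was the highest of the first 15 peaks, and peak 1 was below all others.

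At exons 7 to 11, as at exon 5, a minus-strand peak centred before the exon was followed by a plus-strand peak centred after it. At exon 7, peak 5 (179709663 to 179710009) scored 2473.3 and peak 6 (179709953 to 179710299) scored 2391.1. At exon 8, peak 7 (179715785 to 179716131) scored 1829.0 and peak 8 (179716133 to 179716479) scored 3019.0, the widest ratio at any exon with a peak centred on each side. Exon 9 had the lowest scores of exons 7 to 11, with 1381.4 for peak 9 (179719374 to 179719720) and 1565.4 for peak 10 (179719820 to 179720166). At exon 10, peak 11 (179720211 to 179720557) scored 2200.0 and peak 12 (179720496 to 179720842) scored 1848.6. At exon 11, peak 13 (179722547 to 179722893) scored 2231.5 and peak 14 (179722960 to 179723306) scored 2552.6. Exon 12 had 1 peak, peak 15 (179723608 to 179723954, plus strand), which scored 2090.6.

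The 4 peaks at the 3′ end of the gene scored 3152.9 to 3376.1, above each of the other 15. Peak 16 (179728403 to 179728749, minus strand) was centred in the last intron, 15 bp before exon 15, which holds the last 17 residues and the 3′-UTR, and scored 3188.9. Peak 17 (179729353 to 179729699, minus strand) scored 3152.9 and lay 709 to 1055 bp after the stop codon. Peak 18 (179730285 to 179730631, plus strand) scored 3242.2 at 1641 to 1987 bp after it. Peak 19 (179730410 to 179730756, minus strand) scored 3376.1 at 1766 to 2112 bp, and it overlapped peak 18.

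The scores lay on a common step: 98.3% of the 11121 listed scores under 100 were within 0.05 score units of a whole multiple of 0.2447, where evenly spread values would give 40.9%. The sources do not state what a step is. All CANX scores lay above 100, so for them the step is carried beyond the range in which it was checked. Were each step a single tag, the CANX peaks rested on 4659 (peak 1) to 13797 (peak 19) tags. Exact Poisson 95% intervals on that reading were 3320.0 to 3432.9 for peak 19, 3187.3 to 3298.0 for peak 18 and 1107.6 to 1173.3 for peak 1. Ordered by score, 9 of the 18 neighbouring peaks had overlapping intervals, and the run of peaks 18, 16, 17 and 2 was joined by such overlaps. Peak 19 stood above peak 18 with no overlap. The intervals cover counting error only, because reads carried no molecular identifiers and the replicates were not given apart.

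The deposited annotation put 16 CANX peaks in introns and 3 in the 3′-UTR, and none in a coding exon. The intron peaks lay close to exons: their centres were 2 to 212 bp from the nearest exon, with a median of 96.5 bp. The side went with the strand. All 9 such plus-strand peaks were downstream of the nearest exon and all 7 minus-strand peaks were upstream of it. Of the 19 peaks of 347 bp, 18 overlapped an exon by at least 1 base, and the exception was peak 10, which lay over an AluSz repeat. Peak 3 lay over an AluSq2 repeat, and 2.62% of all listed peaks were annotated on an Alu repeat. Read at the deposited centre, 3 peaks were in an exon. Moved upstream on its own strand by 173 bp, the distance from centre to edge, 17 were: 12 in coding exons, 4 in the 3′-UTR and 1 in the 5′-UTR. Moved 173 bp downstream, 3 were, and the exceptions to the 17 were peaks 10 and 15. When centres were shifted every 20 bp as far as 400 bp, the number in exons was highest, 17, at a shift of -160 bp. Where the tags themselves lay was not tested, since the list holds no reads and the peak-placing settings are not stated.

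**Figure D2:**
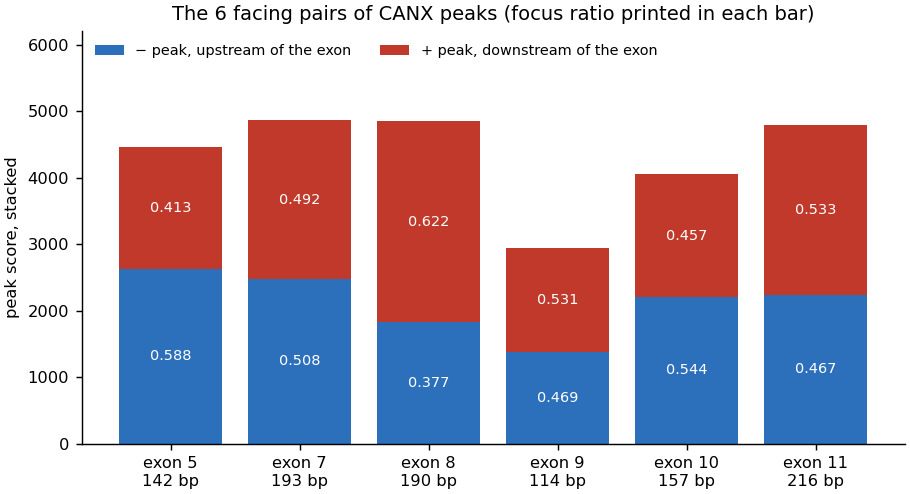
Stacked bars of peak score (y axis from 0, HOMER units) for the minus-strand peak centred before and the plus-strand peak centred after each of exons 5, 7, 8, 9, 10 and 11 (x axis, with exon length), and the focus ratio of each peak printed in its bar. The stacks ran from 2946.8 to 4864.4. The plus-strand peak was higher at 3 exons and the minus-strand peak at the other 3.

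At 6 exons a minus-strand peak before the exon faced a plus-strand peak after it. The summed score of the 2 peaks was 4465.0 at exon 5, 4864.4 at exon 7, 4848.0 at exon 8, 2946.8 at exon 9, 4048.6 at exon 10 and 4784.1 at exon 11. The plus-strand score divided by the minus-strand score was 0.702, 0.967, 1.65, 1.13, 0.840 and 1.14 in the same order, so neither strand was always higher. The centres were 285 to 446 bp apart, 97 to 332 bp more than the length of the exon between them. The focus ratio, a fraction that describes how the reads of a peak sit around its centre, ran from 0.377 to 0.950 over CANX peaks with a median of 0.533, beside 0.542 for the list. At each of these 6 exons the ratios of the 2 peaks added up to between 0.999 and 1.001. The share of the summed score on the minus strand differed from the focus ratio of the minus-strand peak by at most 0.0006. To this precision, each of the 2 scores at an exon equalled its focus ratio times a total that both shared. Over the list, 1433 of 3184 consecutive minus and plus peaks of one host gene within 1000 bp, 45.0%, had ratios that added up to 1 within 0.01. By that rule CANX had 7, of which 6 did, and the exception was peaks 17 and 18.

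Score divided by focus ratio gives this total at the 6 exons with a facing peak on each side. Averaged over the 2 peaks it was 4460.5 at exon 5, 4864.4 at exon 7, 4852.6 at exon 8, 2946.7 at exon 9, 4044.6 at exon 10 and 4783.8 at exon 11. Exons 1, 2 and 12 had 1 peak each, so there the same quotient, 1200.1, 4580.1 and 3355.7, belongs to a single peak. The 4 peaks of exon 15 did not all share such a total, and their quotients ran from 5598.8 to 6105.8 with a mean of 5759.8. Those of peaks 16 and 17, both on the minus strand, were close to each other, at 5664.1 and 5670.7. Exons 7, 8 and 11 lay near one another, and exons 9 and 12 had the lowest quotients of the internal exons with peaks. Of the 13 internal exons, 8 had a peak and 5 did not. Those with a peak were 114 to 216 bp long (median 165.5), and those without, exons 3, 4, 6, 13 and 14, were 59 to 127 bp long (median 80.0). The ranges overlapped through exon 13, which at 127 bp was longer than exons 9 and 12. Over the 8 internal exons with a peak, the quotient went with exon length (Pearson r = 0.89, Spearman rho = 0.90). Without exons 2 and 12, over the 6 exons with facing peaks, r was 0.86 and rho 0.77. Both are descriptions over exons of one transcript from one list. An exon without a listed peak may still have had reads, because the list holds only called peaks.

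**Figure D3:**
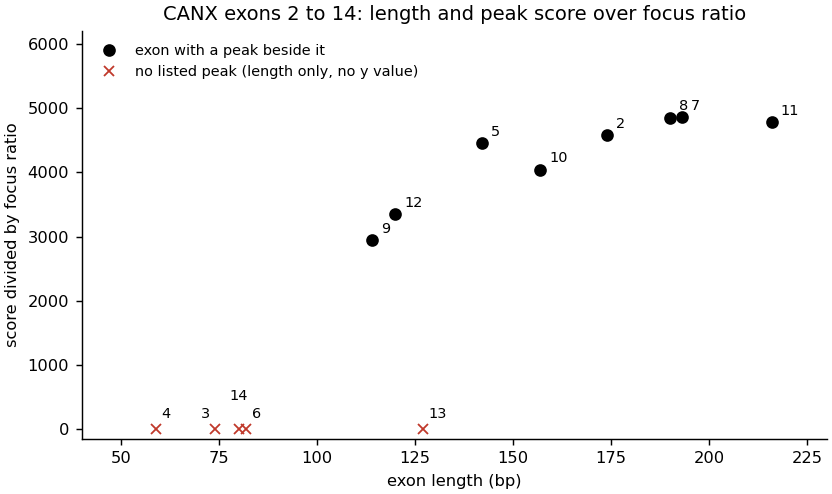
Mean score divided by focus ratio (y axis, HOMER units) against exon length in bp (x axis) for exons 2 to 14 of CANX. Points are the 8 exons with a peak, from 2946.7 at exon 9 to 4864.4 at exon 7, and crosses give only the length of the 5 exons without a listed peak.

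The 3 peaks annotated in the 3′-UTR covered 819 bp of it, 27.3% of its length, and held 21.6% of the summed CANX score. Peak 16, centred in the last intron, reached over a further 105 bp. ATTTA, the core of AU-rich elements, occurred 6 times in the 3′-UTR, and 2 of these were in a peak, at 742 and 1985 bp after the stop codon. Runs of 5 or more T occurred 21 times, of which 4 lay wholly in a peak, and the longest, 12 T at 263 bp, lay in none. AATAAA, the usual polyadenylation hexamer, occurred at 1308, 1784 and 2970 bp, and the copy at 1784 bp was in peaks 18 and 19. The sequences printed above for peaks 17 to 19 show both ATTTA sites, the AATAAA and 1 of the 4 T runs. Of the 30 protein-coding GENCODE transcripts, 15 ended 2978 bp after this stop codon and 4 ended at 2809 bp. Shorter ends were at 263 bp (2 transcripts), 508 bp (1) and 1310 bp (1), the last of these between peaks 17 and 18. The other ends were at 2275 bp or later, beyond peak 19.

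Over whole peaks on the sense strand of the gene, ATTTA was found in 11 of 19 CANX peaks, beside 50.6% of the 13714 listed peaks whose host gene had a known strand. TTTTT was found in 14 of 19, beside 68.5%, and AATAAA in 4 of 19, beside 22.3%. Of the intron peaks, TTTTT was in 7 of 7 on the minus strand, which were centred before an exon, and in 5 of 9 on the plus strand. In the list, TTTTT was in 79.2% of the intron peaks on the strand opposite to their gene and in 68.6% of those on the same strand. The GC content of CANX peaks had a median of 37.8%, beside 38.3% for the list, and ran from 29.7% at peak 4 to 70.6% at peak 1. A match of letters in a peak is not a binding site by itself.

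The list gave CANX as the gene name of 6 of the 19 peaks, peaks 1 to 6, and MAML1, a coactivator of Notch signalling, as the name of the other 13. These 13 held 70.0% of the summed CANX score. All 13 were nearer to the start of MAML1 than to the start of CANX, and all 6 others were nearer to the start of CANX. MAML1 begins 1181 bp after the end of CANX, hosted 0 peaks itself, and had no other peak under its name in the list. Counted by that name, the best CANX score would be 3132.8 and not 3376.1. Within 100 kb of CANX there were 7 other protein-coding genes, and none hosted a peak. The nearest other peak after CANX was 279.0 kb away, in RNF130, with a score of 10.3, and the nearest before it was 2158.5 kb away with a score of 8.81.

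Among 3313 host genes CANX ranked 3 by best score, 2 by summed score, 3 by median score, 7 by lowest score and 38 by number of peaks. Among the 361 genes with 10 or more peaks it had the highest lowest score: 1140.1, followed by 656.3 for AXL and 503.9 for HNRNPL. The gene most like it, by a distance over best score, summed score and number of peaks on the log2 scale, was AXL, a receptor tyrosine kinase (distance 0.412). AXL had 21 peaks, a best score of 2768.7 and a summed score of 25640.3, beside 19, 3376.1 and 45280.5 for CANX. The next were ITGB1, an integrin subunit, with 12 peaks and a best score of 1875.7, CORO1C, an actin-binding coronin, with 20 and 1204.2, SEH1L, a nucleoporin, with 13 and 1324.1, and TMED2, a cargo receptor of the early secretory pathway, with 7 and 3392.2. Their lowest scores were 656.3 in AXL, 477.4 in ITGB1, 13.9 in CORO1C, 258.9 in SEH1L and 986.0 in TMED2, beside 1140.1 in CANX.

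**Figure D4:**
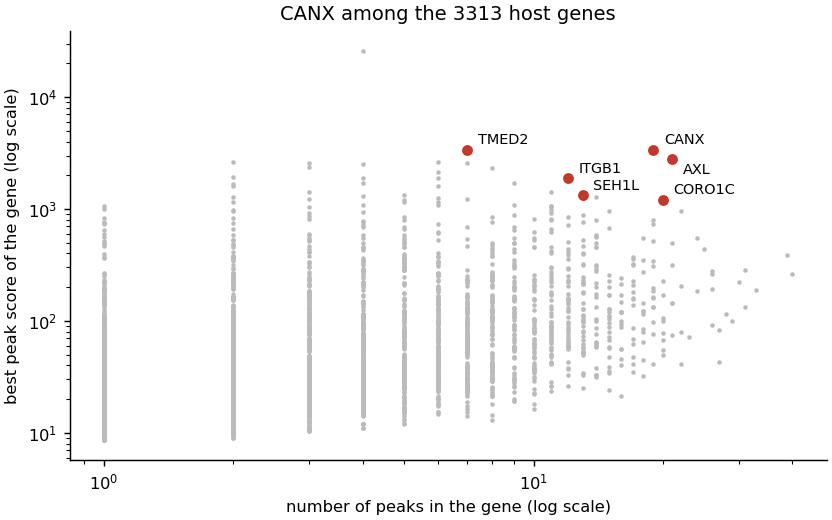
Best score against number of peaks for the host genes of the list, on log axes, with CANX and the 5 most similar genes marked. CANX sits at 19 peaks and 3376.1, near AXL at 21 peaks and 2768.7.

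The calnexin cycle and ER folding genes were taken as a list of 47. With CANX set aside, 15 of the other 46 hosted a peak, 32.6%, beside 15.4% of all RefSeq protein-coding genes. The peak list holds no RNA levels, so neither share is limited to genes expressed in these cells. The difference between the shares was not tested. Among those 15 the median best score was 116.2, beside 34.0 over all host genes. PDIA4, a protein disulfide isomerase, was the next highest after CANX at 1279.6 with 14 peaks, so the best CANX score was 2.64 times its best. ERO1A, the oxidase that recharges disulfide isomerases, had a best score of 497.3 with 8 peaks. SSR3 and SSR1, subunits of the translocon-associated complex, had 392.8 and 378.6. STT3A, a catalytic subunit of oligosaccharyltransferase, had 178.4. EDEM1 and EDEM3, which trim mannose from misfolded glycoproteins, had 164.7 with 14 peaks and 154.4 with 12 peaks, and DERL2, a membrane protein of ER-associated degradation, had 116.2. CKAP4, a membrane protein of ER sheets, had 86.6 with 1 peak.

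Some further genes of this list are given for their roles around calnexin, and were picked after their values were seen. UGGT1, which puts a glucose back on unfolded glycoproteins so that calnexin can bind them again, had 5 peaks with a best score of 56.5, and UGGT2 had 1 at 9.54. CALR (calreticulin, the soluble relative of calnexin), PDIA3 (the disulfide isomerase that works with both), GANAB and PRKCSH (glucosidase II) and the lumenal chaperones HSPA5 and HSP90B1 were among the 31 genes of the list that hosted 0 peaks. A gene without a listed peak is not shown to be unbound, because the list holds only called peaks and its lowest score was 8.32.

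**Figure D5:**
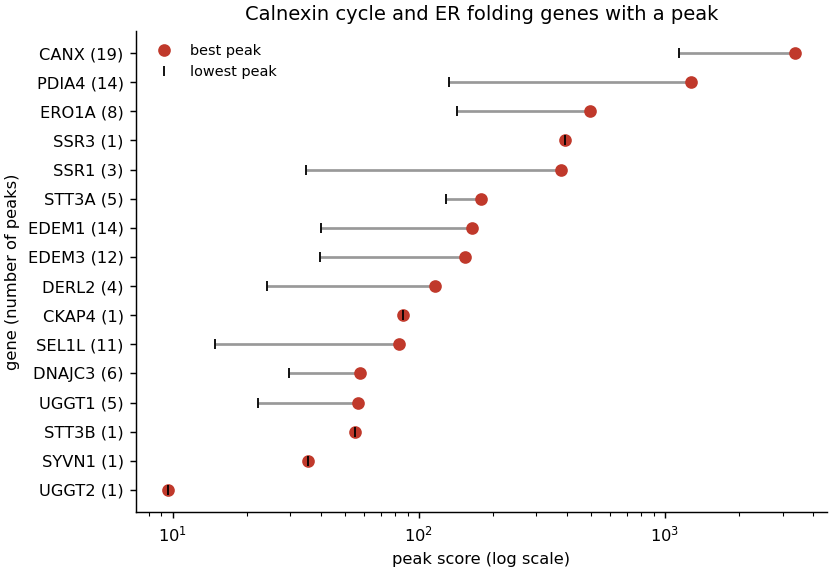
Best (dot) and lowest (tick) peak score on a log axis in HOMER units for the 16 calnexin cycle and ER folding genes that host a peak, ordered by best score, with the number of peaks after each name. CANX peaks lie from 1140.1 to 3376.1, and the next gene, PDIA4, reaches 1279.6.

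As a check of the cell label, 2 of 5 genes known for MDA-MB-231 hosted a peak, CD44 and AXL, and VIM, CAV1 and SPARC did not. None of 5 luminal and epithelial genes (ESR1, PGR, ERBB2, CDH1, EPCAM) hosted one. With 15.4% of all protein-coding genes hosting a peak and no RNA levels in the list, neither count bears on the label.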

How the data were processed

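RIP-seq was performed on 2 HuR RIP and 2 IgG RIP samples of MDA-MB-231 cells, grouped by antibody per the labels. Libraries were TruSeq RNA without poly A selection. The authors aligned reads with STAR to hg38 and called peaks with HOMER, and versions, settings and pooling of replicates are not given in the sources used here. The methods name a different annotation program from the one in the header of the list, which is HOMER. The paper describes a last step that kept peaks with a significant change in transcript abundance. It states neither the threshold of that step nor whether the deposited list is its outcome.

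The deposited peak score is HOMER's score, with no stated scale and no value for a single sample. The focus ratio is, per the file headers, a fraction, and the signed distance to the nearest transcription start in bp is another deposited column. The depth of each library is unknown. Score intervals are exact Poisson 95% intervals on steps of 0.2447, and the step reading is an assumption.

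Host genes were read from the annotated RefSeq transcript, which matched a RefSeq gene for 13838 of 13929 peaks. Exons and UTRs were those of the GENCODE 44 canonical transcript in hg38, with 1-based coordinates. Because the list gives 1 strand per peak, exon positions were also read 173 bp back and forward. The motif ATTTA, the run TTTTT and the hexamer AATAAA were searched on the sense strand of the gene, with the strand of the peak as an alternative for the first. Analyses used Python 3.11.15, numpy 2.4.6, pandas 2.3.3 and scipy 1.17.1, and the step search was tested on simulated data.

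The named genes were CANX, the gene the list names for its peaks, the 10 highest ER genes, the 5 genes most like CANX and any host within 100 kb. ACTB, G3BP1, HNRNPL, RNF130, UGGT1, UGGT2, the ER genes without a peak and the markers of the cell line were named outside that rule, after their values were seen. CANX and the gene lists were chosen with earlier results of these data known. No test was run, since members were chosen by score and no replicate values were given.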

Additional observations from a re-analysis of the deposited data

How the results depend on the processing

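Of 17 alternative settings for 7 quantities, 12 left the value close to the main one. The merged loci numbered 16, against 19 when merged within each strand and 18 when a larger overlap was required. Both of these were counted as close, although 19 means that no peaks merged. Not all of these could have moved it: every CANX score was above the list median, so a cut there had to keep all 19 peaks. By the gene name the list itself gives, 6 peaks were CANX in place of 19. The share of summed CANX score in the 3′-UTR was 28.6% read 173 bp back, against 21.6%. The number of CANX peaks in exons was 3 at the centre, 17 read 173 bp back and 18 by any overlap. The rank of CANX was 3 by best score and 38 by number of peaks. No paired analysis was possible because scores were deposited once per peak and not per sample. Depth per library is unknown, and scores cannot be set against IgG. Counting error, on the step reading, was the only uncertainty that could be given for differences between scores. The cause of the strand and offset pattern was not tested.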
